A study of Mus musculus with 18 samples.

Results

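DNA methylation and demethylation enzymes were followed as 8 genes in the splenic CD4 T cells of Tg4 mice. The genes were taken by name, as the rows of the DNA methyltransferases Dnmt1, Dnmt3a and Dnmt3b, the methylation co-factors Uhrf1 and Uhrf2, and the dioxygenases Tet1, Tet2 and Tet3, out of 37991 genes listed in each count file. The rule uses no measured value, although the family was picked with earlier results of these data known. All 8 passed the filter on low counts. Tg4-H2u mice carry a transgenic T cell receptor for a myelin basic protein peptide, and males and females of 6 to 12 weeks were used. All 18 libraries came from CD4 T cells enriched from spleen, 3 libraries in each of 6 groups.

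Tolerant cells came from mice given escalating subcutaneous doses of the 4Y peptide every few days, and non-tolerant, predominantly naive cells from mice given PBS vehicle on the same schedule. N_0 and T_0 were taken 2 h after a last injection of PBS. N_Ag and T_Ag were taken 2 h after a last injection of 80 µg of 4Y peptide. N_PI and T_PI were cultured for 2 h with 20 ng/ml PMA and 2 µM of the calcium ionophore A23187, which activate signaling downstream of the receptor. Peptide acted in the animal and PMA with ionophore in culture, so the stimulus and the setting cannot be told apart. The enrichment did not sort tolerant cells from the other CD4 cells of the spleen. The study calls the libraries of a group biological replicates, the labels do not say whether each came from a separate animal, and the p-values measure the spread between these libraries.

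Cytosine methylation at CpG is written de novo by DNMT3A and DNMT3B. It is copied onto the new strand after replication by DNMT1, which is brought to hemimethylated CpG by UHRF1. TET1, TET2 and TET3 oxidize 5-methylcytosine to 5-hydroxymethylcytosine and further forms, which are diluted at replication or cut out by thymine DNA glycosylase and base excision repair. In T cells, DNMT3A is known for silencing cytokine genes and TET2 for opening them, and both are known tumor suppressors in the blood lineage. The transcript is what was measured here, and enzyme amount, activity and methylation of DNA were not analysed here.

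The 8 genes lie on 8 chromosomes. In the NCBIM37 (mm9) annotation, Dnmt1 spans chr9:20711650-20757317 on the minus strand, Dnmt3a chr12:3806007-3914443 on the plus strand and Dnmt3b chr2:153475186-153513466 on the plus strand. Uhrf1 spans chr17:56442744-56462909 and Uhrf2 chr19:30105003-30168212, both on the plus strand. Tet1 spans chr10:62267318-62361866, Tet2 chr3:133126643-133207354 and Tet3 chr6:83312367-83391672, all on the minus strand. Only Dnmt3a shared exon bases with another annotated gene, 133 bases (0.799% of its exons) with Gm10485 on the opposite strand. The strand setting of the counting is not given in the sources used here.

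The 250 bases before the RefSeq start sites (GRCm38.p6 windows, 13 of them for the 8 genes) were read, and each was found at a single place in NCBIM37. CpG counts ran from 2 in an upstream Dnmt1 window to 51 before Tet2, against a median of 6 over all 32851 windows. The E2F motif, searched on both strands as TTTCCCGC, TTTGGCGC, TTTGCCGC or TTTCGCGC, was in 1.86% of all windows. Among the windows of the 8 genes it was found in 2, that of Dnmt1 and that of Uhrf1, the pair that acts together at replication, and in both it was the spelling TTTCGCGC, in Dnmt1 on the other strand. Each match is shown here in capitals within 30 bases. The Dnmt1 stretch is chr9:20757268-20757297, minus strand, inside an annotated Dnmt1 exon, and the Uhrf1 stretch is chr17:56443540-56443569, plus strand, outside annotated exons.
Dnmt1: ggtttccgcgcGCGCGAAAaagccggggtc
Uhrf1: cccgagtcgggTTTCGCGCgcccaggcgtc

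The windows of Dnmt3a and Dnmt3b are shown whole because these genes rose together after peptide. Capitals mark the GC box, GGGCGG on either strand, which was in 32.7% of all windows and in 11 of the 13 windows here. It occurred 5 times before the first Dnmt3a start (chr12:3806730-3806979, plus strand) and 3 times before Dnmt3b (chr2:153474935-153475184, plus strand). Such counts were not particular to this pair, with 3 before Uhrf2, 3 in a Uhrf1 window and 2 in a window of Dnmt1, which fell after peptide. None of the capital letters in the 4 sequences overlapped another motif searched.
Dnmt3a: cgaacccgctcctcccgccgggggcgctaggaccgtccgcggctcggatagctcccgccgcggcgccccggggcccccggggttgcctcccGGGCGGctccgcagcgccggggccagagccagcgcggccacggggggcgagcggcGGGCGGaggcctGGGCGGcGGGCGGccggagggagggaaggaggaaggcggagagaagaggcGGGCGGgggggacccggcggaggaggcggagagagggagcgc
Dnmt3b: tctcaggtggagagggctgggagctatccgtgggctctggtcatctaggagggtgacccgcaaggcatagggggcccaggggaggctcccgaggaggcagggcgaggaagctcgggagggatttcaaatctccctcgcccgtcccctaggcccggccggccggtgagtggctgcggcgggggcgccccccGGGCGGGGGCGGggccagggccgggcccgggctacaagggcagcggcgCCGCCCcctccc
The AP-1 motif TGACTCA (4.46% of all windows) and the CRE TGACGTCA (1.55%) were in none of the 13 windows on either strand. The E-box CACGTG (6.02%) was in 1, a downstream Dnmt3a window, and the NFAT core GGAAA (55.6%) was in 4. These matches are letters in a window, not sites of binding.

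Total counts per library ran from 10758571 to 24119489, with the 6 libraries of N_PI and T_PI the deepest. Values are normalized read counts, which are the deposited counts divided by a scaled library size, and each comparison was an edgeR quasi-likelihood test of 17240 genes with Benjamini-Hochberg adjustment over all of them and a threshold of adjusted p 0.05. None of the 8 T cell markers was at 0 in any group. The summed counts of 9 neutrophil markers were 64.5 to 165 in N_0, 134 to 344 in N_Ag and 63.7 to 172 in N_PI, against 1813 to 3251 in T_0, 2160.4 to 3680.1 in T_Ag and 399.9 to 678 in T_PI. Those of 10 erythroid markers were 48.0 to 236 in N_0 and 355 to 2573 in T_0. Those of 7 macrophage markers were 303 to 436 in N_0, 235 to 347 in T_0, 261 to 1684 in N_Ag, 196 to 263 in T_Ag, 75.9 to 106 in N_PI and 139 to 182 in T_PI. Reads of Y-linked genes marked none of the N_0 and N_Ag libraries, 2 of 3 in T_0, 1 of 3 in T_Ag, and all of N_PI and T_PI, so that sex and the PMA and ionophore treatment of non-tolerant cells cannot be told apart. In bulk RNA, a change in the share of cells that carry a transcript and a change in its amount per cell cannot be told apart either.

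**Figure D1:**
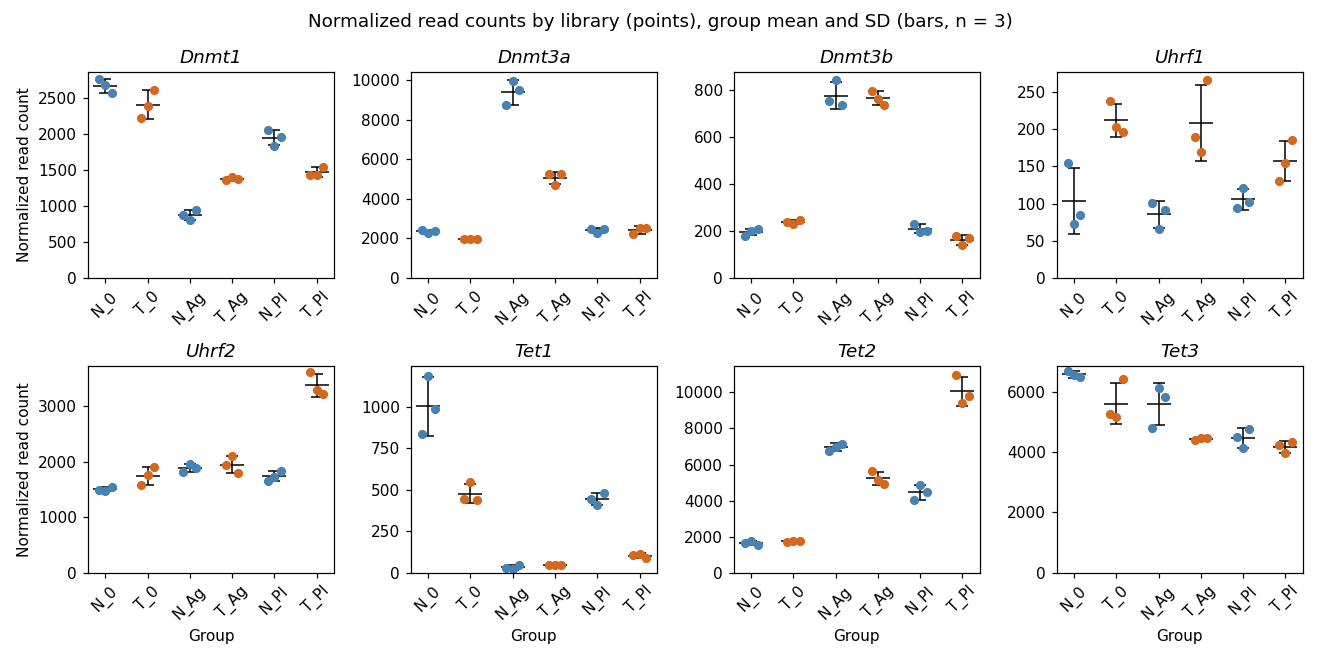
Normalized read count (vertical axes, linear from 0, separate for each gene) of the 8 genes in the 6 groups (horizontal axes). Points are the 3 libraries of a group, blue for non-tolerant and orange for tolerant cells, and the black bars are the group mean and SD. Dnmt3a and Dnmt3b were highest in N_Ag and T_Ag, Tet2 and Uhrf2 were highest in T_PI, and Tet1 was highest in N_0 and lowest in N_Ag.

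Per kilobase of merged exon, resting non-tolerant cells held mostly Tet3, Dnmt1, Tet2, Uhrf2 and Dnmt3a. The merged length covers every annotated transcript, 5264 bases over 1 transcript for Dnmt1 and 16642 bases over 18 for Dnmt3a. Levels of genes with many transcripts can thus be understated, and ranks and shares between genes hold only on this scale. Before division by length, N_0 means were 2665 ± 95.3 for Dnmt1 and 2357 ± 70.7 for Dnmt3a. Mean levels in N_0 were 594 ± 10.3 normalized reads per kb for Tet3, 506 ± 18.1 for Dnmt1, 176 ± 12.4 for Tet2, 175 ± 4.00 for Uhrf2 and 142 ± 4.25 for Dnmt3a (SD, n = 3 throughout). Tet1 stood at 68.2 ± 12, Dnmt3b at 38.4 ± 2.80 and Uhrf1 at 24.4 ± 10.4. Dnmt1 accounted for 73.8 ± 0.93% of the methyltransferase reads per kb and Tet3 for 70.9 ± 1.86% of the TET reads per kb. On this scale the same members held the largest shares in T_0 too, with Dnmt1 at 73.4 ± 1.48% and Tet3 at 69.4 ± 2.80%.

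The first question was how the enzymes responded to antigen in non-tolerant cells. Within 2 h of peptide, the de novo methyltransferases Dnmt3a and Dnmt3b rose 3.98-fold and 3.96-fold, the maintenance enzyme Dnmt1 fell 3.05-fold, Tet1 fell 31.0-fold and Tet2 rose 4.29-fold. Uhrf2 rose by less (1.25-fold), and Tet3 fell 1.18-fold. In all, 7 of the 8 genes passed the threshold in N_Ag against N_0, where 65.5% of the genes tested did. Of them 4 were higher (background 32.1%) and 3 lower (33.4%). With a fold of at least 2 and a mean above 50 in the higher group also required, 5 of 8 were called against 30.3% of genes.

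Dnmt3a had 2421, 2281 and 2368 normalized reads in the N_0 libraries and 8713, 9947 and 9481 in the N_Ag libraries. Every N_Ag library lay far above every N_0 library, with a log2 fold change of 1.99 ± 0.07 (SE, adjusted p = 1.37e-17). Dnmt3b, the related de novo enzyme, had a much lower level, 180.3, 199 and 208 in N_0 and 751, 841 and 735 in N_Ag. Its log2 fold change was almost the same, 1.98 ± 0.10 (adjusted p = 4.98e-15). Dnmt1 went the other way, from 2754, 2678 and 2564 in N_0 to 875, 805 and 939 in N_Ag. That was a log2 fold change of −1.61 ± 0.07 (adjusted p = 1.22e-15), with no overlap between the groups. As a result of these opposite changes, Dnmt1 made up 18.9 ± 1.87% and Dnmt3a 63.9 ± 1.37% of the methyltransferase reads per kb in N_Ag, while the family's sum moved from 686 ± 16.9 to 881 ± 40.2 per kb.

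Tet1 showed the largest fold change of the 8 genes in N_Ag against N_0. It was read at 834, 1187 and 991 normalized counts in N_0 and at 25.2, 23.5 and 47.3 in N_Ag, from 20 to 43 raw reads per N_Ag library. All N_Ag libraries were more than an order of magnitude below all N_0 libraries (log2 fold change −4.95 ± 0.19, adjusted p = 1.32e-15). Tet2 had 1624, 1733 and 1505 in N_0 and 6724, 6986 and 7149 in N_Ag, without overlap (2.1 ± 0.08, adjusted p = 3.62e-17). Tet3, the most abundant TET at rest, had 6707, 6557 and 6483 in N_0 and 4813, 6138 and 5828 in N_Ag. The groups did not overlap, but the difference was small (−0.23 ± 0.09, adjusted p = 0.02), and it missed the threshold without N_Ag replicate 1 (−0.14, adjusted p = 0.156), with DESeq2 (−0.18, adjusted p = 0.0759), with its size factors in edgeR (−0.18, adjusted p = 0.0692) and with scores of the neutrophil and erythroid markers as covariates (−0.23, adjusted p = 0.052). Tet2 rose from 21.0 ± 0.92% of the TET reads per kb in N_0 to 60.0 ± 2.47% in N_Ag, and Tet1 went from 8.13 ± 1.31% to 0.171 ± 0.066%.

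**Figure D2:**
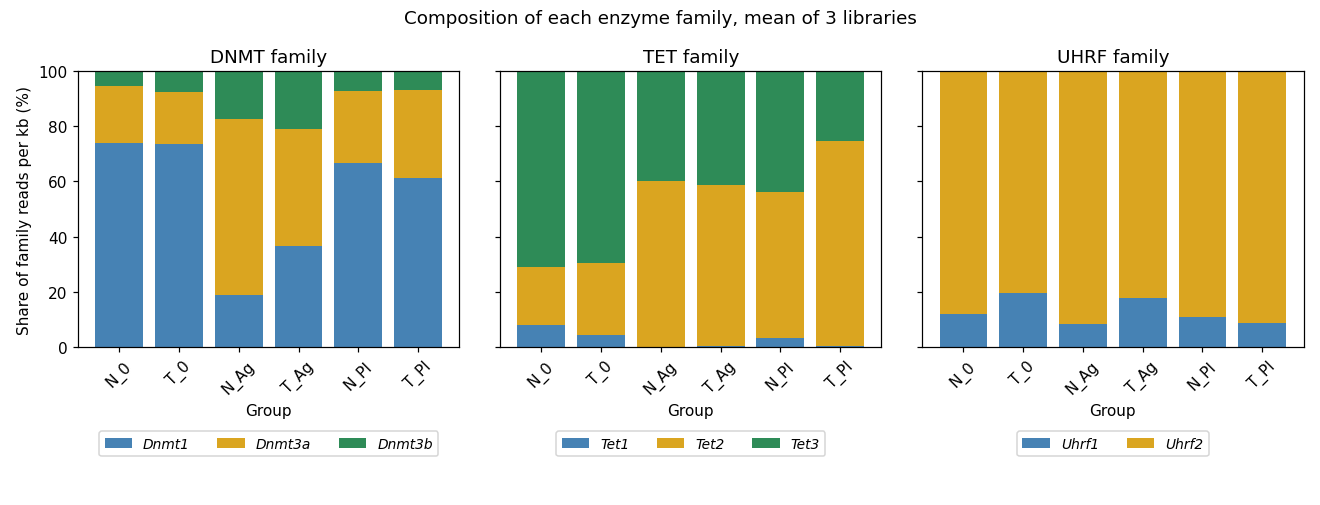
Mean share (vertical axis, percent of the family's normalized reads per kb of exon) of each member in the DNMT, TET and UHRF families, in the 6 groups (horizontal axis, 3 libraries each). Dnmt1 held 73.8% of its family in N_0 and 18.9% in N_Ag, and Tet2 held 21.0% of its family in N_0, 60.0% in N_Ag and 74.0% in T_PI.

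Of the co-factors, Uhrf2, a paralog of Uhrf1 that does not replace it in maintenance, had 1489.8, 1477 and 1542 reads in N_0 and 1809, 1955 and 1883 in N_Ag (0.32 ± 0.08, adjusted p = 0.000552). Uhrf1 had 155, 72.0 and 85.3 in N_0 and 101, 65.8 and 91.3 in N_Ag. These overlapped, and the log2 difference of −0.28 had a 95% interval from −0.84 to 0.29 (adjusted p = 0.364). With the marker scores as covariates Uhrf1 passed (−0.72, adjusted p = 0.00232). Of 8 T cell markers, 6 were lower and 2 higher in N_Ag than in N_0 (median −1.04), and their part in these results was not tested.

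Tolerant cells answered the same peptide with changes in the same direction for Dnmt1, Dnmt3a, Dnmt3b, Tet1, Tet2 and Tet3, the 6 of 8 genes past the threshold in T_Ag against T_0 (background 59.8%). With the fold limit, 4 of 8 were called (23.4%). Dnmt3a had 1959, 1969.6 and 1972 in T_0 and 5228, 4696 and 5259.9 in T_Ag, a rise of 2.57-fold (1.36 ± 0.07, adjusted p = 2.45e-14). Dnmt1 had 2215, 2390.0 and 2608 in T_0 and 1354, 1399.7 and 1369 in T_Ag, a fall of 1.75-fold (−0.81 ± 0.07, adjusted p = 5.65e-10). Both shifts were smaller than in non-tolerant cells, and the test of the difference in response gave 0.80 ± 0.10 for Dnmt1 (adjusted p = 4.42e-06) and −0.63 ± 0.10 for Dnmt3a (adjusted p = 5.74e-05). Dnmt3b had 239, 229.6 and 246 in T_0 and 796, 762 and 737 in T_Ag. It rose 3.21-fold, and its response was not shown to differ from that of non-tolerant cells (−0.30, 95% interval −0.60 to 0.00, adjusted p = 0.127), except with the marker scores (−0.50, adjusted p = 0.027).

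The TET genes followed the same lines. Tet1 had 447, 545 and 439 in T_0 and 46.2, 48.9 and 48.2 in T_Ag, 9.97-fold lower (adjusted p = 7.68e-13). Tet2 had 1707, 1775 and 1749 in T_0 and 5645, 5126 and 4901 in T_Ag, 3.00-fold higher (adjusted p = 1.03e-14). Again the responses were smaller than in non-tolerant cells, by 1.64 ± 0.28 for Tet1 (adjusted p = 0.000246) and by −0.52 ± 0.11 for Tet2 on the log2 scale (adjusted p = 0.0013). For Tet1 this combines a lower resting level in T_0 than in N_0 (−1.07 ± 0.14) with 0.56 ± 0.25 in T_Ag against N_Ag. The latter missed the threshold (adjusted p = 0.0786) and rested on 20 to 43 raw reads per N_Ag library and 41 to 47 per T_Ag library. Tet3 had 5261, 5162 and 6409 in T_0 and 4404, 4472 and 4457 in T_Ag (−0.34 ± 0.09, adjusted p = 0.00163), and its response was not shown to differ between the cell states (−0.10, 95% interval −0.37 to 0.16). In all, the response to peptide differed between tolerant and non-tolerant cells for 4 of 8 genes, where it did for 21.7% of the genes tested. The comparisons T_Ag against T_0 and N_Ag against N_0 share no library.

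Uhrf1 had 237, 203 and 196 in T_0 and 189, 169 and 266 in T_Ag, which overlapped (adjusted p = 0.944). Uhrf2 had 1578, 1760.3 and 1905 in T_0 and 1944, 2097 and 1802 in T_Ag, which also overlapped (adjusted p = 0.0776), although the difference passed without T_Ag replicate 3 (0.21, adjusted p = 0.0302) or T_0 replicate 3 (0.19, adjusted p = 0.0347).

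**Figure D3:**
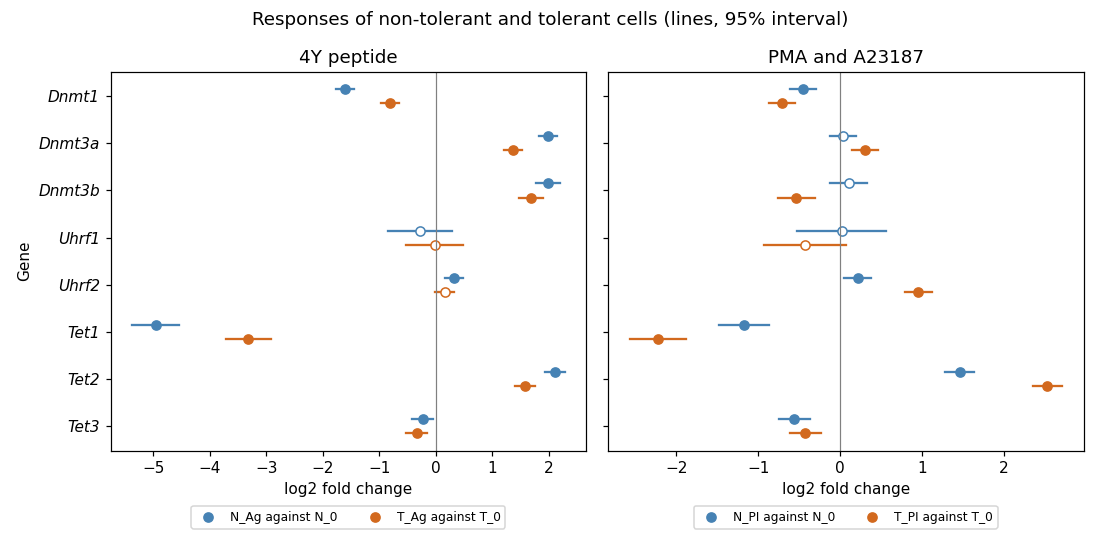
Log2 fold changes (horizontal axes) of the 8 genes (vertical axis) after 4Y peptide (left) and after PMA and A23187 (right), in non-tolerant (blue) and tolerant (orange) cells. Points are edgeR estimates, filled where the adjusted p was under 0.05, and lines are 95% intervals. After peptide the changes of Dnmt1, Dnmt3a, Tet1 and Tet2 were nearer to 0 in tolerant cells, and after PMA and A23187 those of Uhrf2, Tet1 and Tet2 were farther from 0 in tolerant cells.

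PMA and ionophore gave a different pattern. In non-tolerant cells, 5 of 8 genes passed the threshold in N_PI against N_0 (background 61.4%), and 2, Tet1 and Tet2, reached the fold limit (20.3%). Dnmt3a, with 2485, 2274 and 2471 in N_PI, overlapped the resting cells (0.03, 95% interval −0.12 to 0.19, adjusted p = 0.713). Dnmt3b, with 232, 198 and 202, also overlapped N_0 (0.10, 95% interval −0.12 to 0.33, adjusted p = 0.398). Set directly against the peptide group, N_PI was 3.89-fold lower than N_Ag for Dnmt3a (adjusted p = 2.66e-17) and 3.68-fold lower for Dnmt3b (adjusted p = 1.52e-14). Dnmt1 had 2051, 1837 and 1955 in N_PI, 1.37-fold lower than N_0 (−0.45 ± 0.07, adjusted p = 6.32e-06) and 2.23-fold higher than N_Ag (adjusted p = 7.8e-13).

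Tet1 and Tet2 moved in the direction seen after peptide, and by less. Tet1 had 444, 406 and 483 in N_PI, 2.26-fold below N_0 (−1.17 ± 0.14, adjusted p = 2.94e-07) and 13.7-fold above N_Ag (adjusted p = 2.15e-13). Tet2 had 4050.5, 4836 and 4456, 2.74-fold above N_0 (1.46 ± 0.08, adjusted p = 1.05e-13) and 1.56-fold below N_Ag (adjusted p = 7.38e-08). Tet3 had 4510.2, 4125 and 4768, 1.47-fold below N_0 (adjusted p = 4.84e-06). Per kb, Tet2 thus passed Tet3 in the TET family under both stimuli, with 52.7 ± 3.58% of the family's reads per kb in N_PI. Before division by length, the N_PI means of Tet2 and Tet3 were nearly equal, 4447 and 4468. Uhrf1 had 93.6, 121 and 102 in N_PI and did not differ detectably from N_0 (adjusted p = 0.966). Uhrf2 had 1658, 1724 and 1834 (0.21 ± 0.08, adjusted p = 0.0185), a difference that missed the threshold when N_0 replicate 1, 2 or 3 or N_PI replicate 3 was left out (0.15 to 0.18, adjusted p from 0.0705 to 0.137) and with the marker scores (0.16, adjusted p = 0.166). Uhrf1 instead passed with those scores (0.69, adjusted p = 0.0147). All 7 macrophage markers (median −3.57) and 6 of 9 neutrophil markers (median −4.33) were lower in N_PI than in N_0. However, 2 neutrophil markers were higher, and the summed neutrophil counts overlapped (64.5 to 165 in N_0, 63.7 to 172 in N_PI). The part of the macrophage markers was not tested. Between the stimuli, 6 of 8 genes passed in N_PI against N_Ag (64.4%), and 4 with the fold limit (27.5%). With the marker scores, Tet3 lost the threshold there (−0.32 ± 0.16, adjusted p = 0.117, main value −0.32) and Uhrf1 passed (1.40, adjusted p = 0.000545).

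In tolerant cells PMA and ionophore moved 7 of 8 genes past the threshold (T_PI against T_0, background 68.3%), with Tet1 and Tet2 again the 2 at the fold limit (27.1%). Tet2 reached 10975, 9392 and 9796, its highest level in any group, 5.77-fold above T_0 (2.53 ± 0.08, adjusted p = 2.47e-18). Every T_PI library held more Tet2 than any of the 15 other libraries, and T_PI exceeded N_Ag, the next group, by 0.53 ± 0.08 on the log2 scale (adjusted p = 1.4e-06). Tet1 had 106, 115 and 87.1, 4.68-fold below T_0 (adjusted p = 6.6e-11). Uhrf2 had 3611, 3294 and 3229, 1.93-fold above T_0 (0.95 ± 0.07, adjusted p = 4.89e-11), where the highest library of any other group had 2097. Among the 8 genes, Uhrf2 thus joined Tet2 in being highest in T_PI. The summed counts of 8 T cell markers were also highest there, 59324 to 62777 beside 52863 to 59164 in N_PI, the next group. Of these markers 5 were higher and 3 lower in T_PI than in T_0 (median 0.43), and their part was not tested. Dnmt1 had 1431, 1427 and 1544, a fall of 1.64-fold (adjusted p = 4.09e-09), and Dnmt3a had 2209, 2525 and 2538, a rise of 1.23-fold (adjusted p = 0.000622).

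Dnmt3b parted from Dnmt3a here. With 181, 140.5 and 168 in T_PI, it was 1.45-fold lower than in T_0 (−0.54 ± 0.10, adjusted p = 5.76e-05), where Dnmt3a was higher. Tet3 had 4238, 3959 and 4320.2 (−0.43 ± 0.09, adjusted p = 0.000124), and Uhrf1 had 131, 155 and 185 (−0.43, 95% interval −0.93 to 0.07, adjusted p = 0.104). The response to PMA and ionophore differed between tolerant and non-tolerant cells for 4 of 8 genes, where it did for 20.2% of genes. With DESeq2, Dnmt1 (−0.25, adjusted p = 0.0482) and Dnmt3a (0.28, adjusted p = 0.0354) passed as well, and Dnmt1 also passed with the compared groups alone (−0.34, adjusted p = 0.0105). The response was larger in tolerant cells for Tet2 by 1.07 ± 0.11 (adjusted p = 2.7e-07) and for Uhrf2 by 0.74 ± 0.11 (adjusted p = 1.8e-05). Tet1 fell further in tolerant cells, a difference of −1.05 (SE 0.21, adjusted p = 0.00108), and the Dnmt3b response differed by −0.64 (SE 0.14, adjusted p = 0.00241). In T_PI against T_0, 7 of 9 neutrophil markers were lower (median −4.77). With the marker scores Dnmt1 (−0.33 ± 0.22, adjusted p = 0.308), Dnmt3a (0.36 ± 0.23, adjusted p = 0.265) and Tet3 (−0.33 ± 0.28, adjusted p = 0.405) no longer passed. Their main values were −0.71, 0.30 and −0.43, the last with an SE of 0.09. The neutrophil sums of T_0 and T_PI did not overlap, so cell makeup and treatment cannot be told apart in that fit.

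Against the peptide group of tolerant cells, 5 of 8 genes passed in T_PI against T_Ag (63.8%), 3 of them with the fold limit (25.5%). Dnmt3b was 4.66-fold lower (adjusted p = 1.13e-15), Dnmt3a 2.09-fold lower (adjusted p = 2.14e-12) and Tet1 2.13-fold higher in T_PI (adjusted p = 6.28e-05). Of the neutrophil markers, 7 of 9 were lower in T_PI than in T_Ag (median −4.01). With the marker scores Tet1 lost the threshold (0.72 ± 0.48, adjusted p = 0.297), beside 1.09 ± 0.20 in the main fit. The neutrophil sums of T_Ag and T_PI did not overlap, so cell makeup and stimulus cannot be told apart in that fit. For Dnmt1 no difference between the stimuli was detected in tolerant cells (0.10, 95% interval −0.06 to 0.25, adjusted p = 0.261).

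The next question was how tolerant and non-tolerant cells differed under the same treatment. These 3 comparisons draw on the same libraries as the responses above. At rest, the tolerant cells had less Tet1 and Dnmt3a and more Uhrf1 and Uhrf2, 4 of 8 genes past the threshold (T_0 against N_0, background 20.4%), and Tet1 and Uhrf1 reached the fold limit (3.25%). Tet1 was 2.1-fold lower (−1.07 ± 0.14, adjusted p = 2.06e-05), with its highest T_0 library, 545, below its lowest N_0 library, 834. Uhrf1 was 2.03-fold higher (1.02 ± 0.24, adjusted p = 0.00546), although N_0 replicate 1, at 155, stood nearer to T_0 than the other N_0 libraries did. Dnmt3a was 1.20-fold lower (−0.26 ± 0.07, adjusted p = 0.011) and Uhrf2 1.16-fold higher (0.22 ± 0.08, adjusted p = 0.0432). The Uhrf2 difference missed the threshold in 5 of 6 fits that left out a library, all but the one without T_0 replicate 1 (0.14 to 0.23, adjusted p from 0.0739 to 0.181). Dnmt3b (0.28 ± 0.10, adjusted p = 0.0529), Tet3 (−0.23 ± 0.09, adjusted p = 0.0611), Dnmt1 (−0.15 ± 0.07, adjusted p = 0.148) and Tet2 (0.11 ± 0.08, adjusted p = 0.383) did not pass. Without T_0 replicate 3, the T_0 library not marked by Y-linked reads, Tet3 (−0.34, adjusted p = 0.00467) and Dnmt1 (−0.22, adjusted p = 0.04) passed as well. Dnmt3b passed with DESeq2 size factors (0.29, adjusted p = 0.0438) and with the compared groups alone (0.36, adjusted p = 0.0344), and Tet3 without the filter on low counts (−0.23, adjusted p = 0.0414).

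All 9 neutrophil markers and 3 of 10 erythroid markers were higher in T_0 than in N_0, with medians of 4.57 and 3.19 on the log2 scale. With the scores of both marker lists as covariates, none of the 8 genes passed in this comparison, and 7 of all genes did in place of 3519. The Uhrf1 value turned to −1.06 (adjusted p = 0.693). The scores nearly follow the groups, so the SE of the Tet1 value rose from 0.14 to 0.61, and cell makeup and tolerance cannot be told apart in that fit. With both Y-marked T_0 libraries left out, together with that of T_Ag, T_0 was replicate 3 alone, which was assumed to vary like the other groups and was the highest T_0 library for Uhrf2. In that fit Uhrf1 (0.91, adjusted p = 0.112) and Dnmt3a (−0.26, adjusted p = 0.148) did not pass, and Tet1 and Uhrf2 did.

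**Figure D4:**
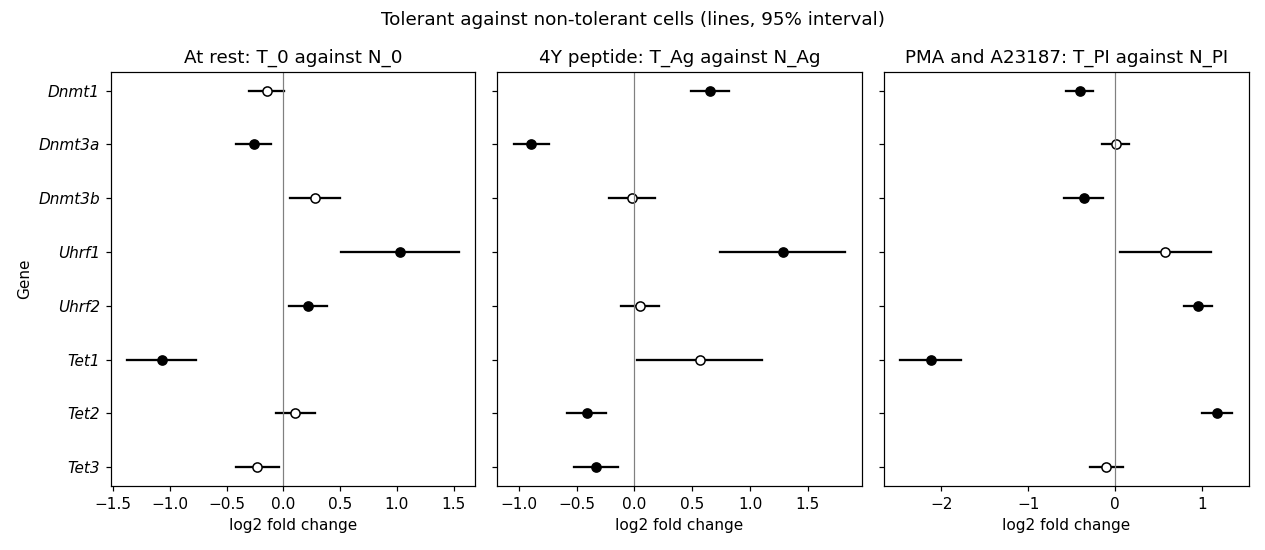
Log2 fold changes (horizontal axes, each with its own range) of tolerant against non-tolerant cells for the 8 genes (vertical axis), at rest, after 4Y peptide and after PMA and A23187. Points are edgeR estimates, filled where the adjusted p was under 0.05, and lines are 95% intervals. Tet1 was lower in tolerant cells at rest (−1.07) and after PMA and A23187 (−2.12) and had a value of 0.56, short of the threshold, after peptide.

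After peptide, 5 of 8 genes differed between the cell states (T_Ag against N_Ag, background 39.4%), and Uhrf1 alone reached the fold limit (5.66%). Dnmt3a was 1.85-fold lower in tolerant cells (−0.89 ± 0.07, adjusted p = 9.36e-10) and Dnmt1 was 1.57-fold higher (0.65 ± 0.07, adjusted p = 2.63e-07). Dnmt1 and Dnmt3a thus stood at 36.5 ± 1.43% and 42.5 ± 1.80% of the methyltransferase reads per kb in T_Ag. Dnmt3b was at nearly the same level in both (−0.02, 95% interval −0.22 to 0.18, adjusted p = 0.886). Tet2 was 1.33-fold lower (adjusted p = 0.000156) and Tet3 1.26-fold lower (adjusted p = 0.00365). Uhrf1 was 2.43-fold higher (1.28 ± 0.25, adjusted p = 0.000522), the lowest T_Ag library, 169, lying above the highest N_Ag library, 101. Tet1 had a value of 0.56 ± 0.25 (adjusted p = 0.0786), and it passed the threshold without N_Ag replicate 3, its highest library in that group (0.97, adjusted p = 0.00382). All 9 neutrophil markers were also higher in T_Ag, and with the marker scores only Dnmt3a among the 8 genes passed, while 320 of all genes did in place of 6794. The Uhrf1 value then turned to −0.21 (adjusted p = 0.894). Dnmt1 was 0.30 ± 0.21 in that fit, beside 0.65 in the main fit. Tet2 was −0.37 ± 0.23 beside −0.41, and Tet3 −0.42 ± 0.26 beside −0.33. The neutrophil sums of N_Ag and T_Ag did not overlap, so cell makeup and tolerance cannot be told apart in that fit either. Of 7 macrophage markers 6 were lower in T_Ag than in N_Ag (median −3.97), and of 8 T cell markers 5 were higher and 1 lower (median 0.50), and the part of both in these results was not tested.

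After PMA and ionophore, 5 of 8 genes differed (T_PI against N_PI, background 37.9%), 2 of them with the fold limit (5.60%). All 6 libraries of this comparison carried Y-linked reads. Tet1 was 4.36-fold lower in tolerant cells (−2.12 ± 0.16, adjusted p = 1.98e-09) and Tet2 2.26-fold higher (1.18 ± 0.08, adjusted p = 5.64e-11). The pair thus moved in opposite directions, and Tet2 reached 74.0 ± 1.27% of the TET reads per kb in T_PI. Uhrf2 was 1.94-fold higher (0.96 ± 0.07, adjusted p = 6.9e-10). Dnmt1 was 1.33-fold lower (adjusted p = 7.21e-05) and Dnmt3b 1.28-fold lower (adjusted p = 0.00745), the latter losing the threshold without N_PI replicate 1 (−0.28, adjusted p = 0.0553) or T_PI replicate 2 (−0.27, adjusted p = 0.0557) and at 0.0034 with the marker scores (adjusted p = 0.995). Dnmt3a was at the same level (0.01, 95% interval −0.15 to 0.16, adjusted p = 0.947), Tet3 did not pass (adjusted p = 0.411), and Uhrf1 had a value of 0.58 ± 0.24 (adjusted p = 0.0696), which passed with the compared groups alone (0.60, adjusted p = 0.00317) and with DESeq2 (0.59, adjusted p = 0.0417) and turned to −0.58 with the marker scores (adjusted p = 0.241). Of the neutrophil markers, 7 of 9 were higher in T_PI, and with the marker scores Tet1, Tet2, Uhrf2 and Dnmt1 remained past the threshold. Of all genes, 2310 passed with the scores in place of 6537. The neutrophil sums of N_PI and T_PI did not overlap, so cell makeup and tolerance cannot be told apart in that fit either.

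The order of the groups differed from gene to gene. Dnmt1 was highest in N_0 and T_0, which did not differ beyond their spread, then in N_PI, then in T_PI and T_Ag, which did not differ either, and lowest in N_Ag. Dnmt3a fell from N_Ag to T_Ag to a group of T_PI, N_PI and N_0 without detectable differences between neighbors, and was lowest in T_0. For Dnmt3b, N_Ag and T_Ag did not differ detectably and stood above all the rest, and T_PI was lowest. Uhrf2 had T_PI on top and N_0 at the foot, with no detectable step among T_Ag, N_Ag, T_0 and N_PI between them. Tet2 stood at 5 levels past the threshold from one to the next, in the order T_PI, N_Ag, T_Ag, N_PI and then T_0 with N_0, where the last pair did not differ beyond its spread. Tet1 went from N_0 to T_0 and N_PI, on to T_PI, and last to T_Ag and N_Ag. No neighbors in the order of Uhrf1 differed past the threshold, although the tolerant groups T_0 and T_Ag at its top were each above N_0 and N_Ag at its foot. Tet3 had a single step past the threshold, between N_Ag and N_PI.

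Over the 18 libraries, the log2 levels of Dnmt3a and Dnmt3b had a Pearson correlation of 0.90, those of Dnmt1 and Tet1 of 0.95, and those of Dnmt1 and Dnmt3a of −0.88. The libraries share their 6 groups, so these values describe the group pattern. Among 10361 genes with a mean of at least 50, those with the pattern nearest to Dnmt3a were Lmnb2, Mrpl16 and Txnrd1 (0.98 to 0.99), and nearest to Dnmt3b were Ssrp1, Afg3l2 and Aatf (all 0.99). Dnmt1 was nearest to Pbx2, Hectd3 and Sh2d3c (all 0.99), Tet1 to Atp8a1, Lypd6b and Pdk1 (all 0.99) and Tet2 to Zap70, Eml4 and Rnf149 (all 0.99). Uhrf1 was nearest to the replication-dependent histone gene Hist1h1b (0.96), to Top2a (0.94), the topoisomerase of dividing cells, and to Lmo2 (0.94), a regulator of blood progenitors. Uhrf2 was nearest to Sec14l1, Kctd9 and Tbk1 (0.95 to 0.97), and Tet3 had the loosest matches, Hace1, 1700019G17Rik and Zfp369 (0.89 to 0.93).

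The genes around these enzymes were described from lists of the same pathway, each beside the median of all genes tested, which was 0.00 in N_Ag against N_0, −0.05 in T_Ag against T_0, −0.06 in N_PI against N_0, −0.10 in T_PI against T_0 and −0.08 in T_0 against N_0. Of all genes tested, 32.1% were higher and 33.4% lower in N_Ag against N_0, 29.9% and 29.8% in T_Ag against T_0, 28.6% and 32.7% in N_PI against N_0, and 32.0% and 36.3% in T_PI against T_0. Between the cell states, 20.9% were higher and 18.5% lower in T_Ag against N_Ag, and 18.2% and 19.7% in T_PI against N_PI. Of 10 proteins that read methyl-CpG, 8 were lower and 1 higher in N_Ag than in N_0, with a median of −1.18. Zbtb38 (−3.48 ± 0.16) and Zbtb4 (−2.55 ± 0.09), zinc finger repressors that bind methylated DNA, fell most, and Mbd3, a subunit of the NuRD complex, rose (0.99 ± 0.09). In T_Ag against T_0, 7 fell and 2 rose, with a median of −0.91. The response to peptide was less negative or more positive in tolerant cells for 7 of the 10 (background for higher, 14.6%). After PMA and ionophore, 3 were higher and 6 lower both in N_PI against N_0 (median −0.34) and in T_PI against T_0 (median −0.30), and Zbtb4 was among those higher in T_PI (0.88 ± 0.08).

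Among partners of the writers, Cdca7, which with HELLS remodels chromatin for maintenance methylation, rose in N_Ag (3.57 ± 0.14) and in T_Ag (3.17 ± 0.13), beside falling Dnmt1. Hells itself, named after its values were seen, had −0.17 in N_Ag against N_0 (adjusted p = 0.232) and fell in T_Ag against T_0 (−0.53, adjusted p = 0.00036). Of 15 tested genes on that list, 8 were higher and 3 lower in N_Ag than in N_0, with a median of 0.46, where 65.5% of all genes passed in either direction. Ehmt2, a histone H3 lysine 9 methyltransferase, fell (−1.53 ± 0.09), as did Nsd1 (−1.17 ± 0.08). Cdca7 was also higher in T_0 than in N_0 (0.82 ± 0.15, adjusted p = 0.00041), where 5 of 15 were higher (background 8.42%) and 1 was lower.

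The enzymes that supply S-adenosylmethionine, the methyl donor, and the folate cycle behind it rose in greater number after peptide. In N_Ag against N_0, 11 of 15 were higher and 4 lower, with a median of 1.69, led by the serine hydroxymethyltransferases Shmt1 (6.20 ± 0.16) and Shmt2 (3.06 ± 0.10). In T_Ag against T_0, 10 were higher and 3 lower (median 1.20), and Mat2a, the catalytic S-adenosylmethionine synthetase subunit outside the liver, rose 2.87 ± 0.09. In N_PI against N_0 the list split, 6 higher and 7 lower (median −0.17). Mat2a was lower in T_0 than in N_0 (−0.73 ± 0.09, adjusted p = 3.03e-06), where 5 of 15 were lower and 0 higher (background 20.4% in either direction).

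On the demethylation side, partners and cofactor enzymes of TET proteins split evenly in N_Ag against N_0, 5 higher and 5 lower of 13 (median −0.04). Idh3a, a subunit of the mitochondrial isocitrate dehydrogenase that makes the TET cosubstrate 2-oxoglutarate, rose (1.95 ± 0.08), and D2hgdh, which removes the TET inhibitor D-2-hydroxyglutarate, fell (−3.13 ± 0.13), as did Idh1 (−2.93 ± 0.24). In T_PI, 2 of the 13 were higher and 8 lower than in T_0 (median −0.39), and 1 was higher and 6 lower than in N_PI (median −0.20). Ogt, the O-GlcNAc transferase that binds TET proteins, was among the higher ones in both (1.44 ± 0.09 and 1.42 ± 0.09). Of 14 base excision repair and GADD45 genes, 8 were higher and 3 lower in N_Ag (median 0.50), with Gadd45b at 5.79 ± 0.16 and Gadd45g at 4.55 ± 0.27, and with the glycosylases Neil2 (−3.68 ± 0.48) and Neil1 (−2.84 ± 0.17) lower. Tdg, the glycosylase that excises oxidized methylcytosine, was higher in T_PI than in N_PI (1.53 ± 0.09), where 4 of the 14 were higher and 4 lower (median −0.04).

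**Figure D5:**
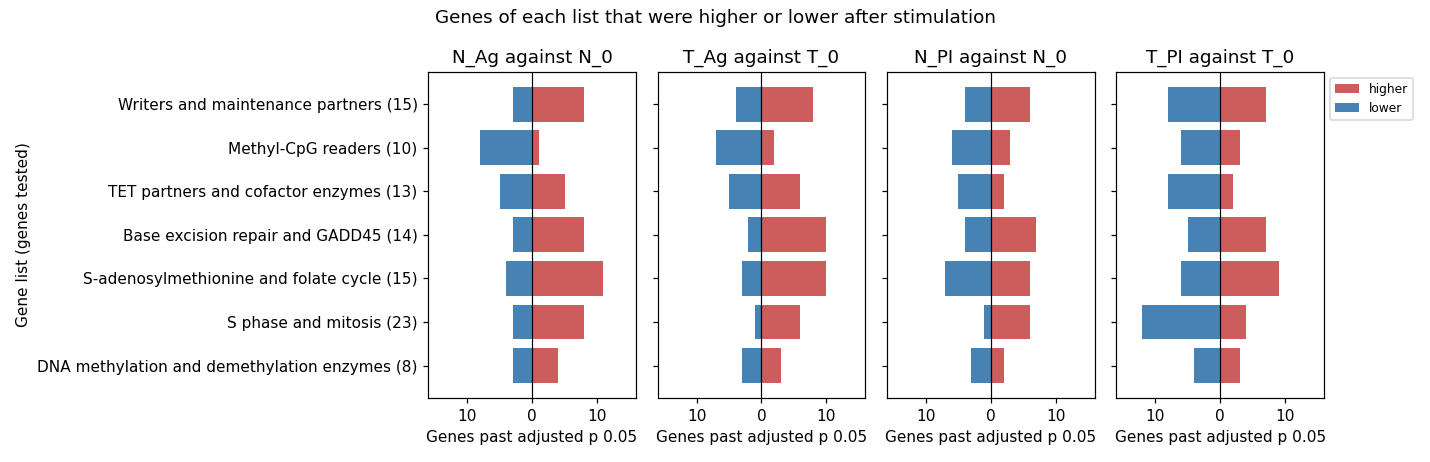
Number of genes (horizontal axes, counts to the right higher and to the left lower) past adjusted p 0.05 in each list (vertical axis, with the number of genes tested) for the 4 comparisons of stimulated with resting cells. The methyl-CpG readers had 8 lower and 1 higher gene in N_Ag against N_0, and the S-adenosylmethionine and folate list had 11 higher and 4 lower.

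S phase and mitosis genes were listed because Uhrf1 and Dnmt1 are known to be made in cycling cells. Of 23 such genes, 12 were higher and 0 lower in T_0 than in N_0 (background for higher 8.42%, median 0.61), among them Mki67 (1.59 ± 0.32, adjusted p = 0.00389) and Aurkb (1.68 ± 0.39, adjusted p = 0.00418). Uhrf1 was among the genes higher in T_0 too, while Dnmt1 had a value of −0.15. In T_Ag against N_Ag, 11 were higher and 1 lower (median 0.47), and in T_PI against N_PI 3 were higher and 4 lower (median 0.02), shares below those of all genes. Top2a ran at 285 ± 149 in N_0, 713 ± 35.5 in T_0, 275 ± 19.9 in N_Ag and 799 ± 131 in T_Ag. The part of cycling cells, or of erythroid and neutrophil precursors, in the Uhrf1 level was not tested beyond the fit with marker scores.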

How the data were processed

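RNA of splenic CD4 cells was sequenced in 18 libraries, 3 for each of the 6 groups that the labels give. Per the labels and the study's methods, total RNA was depleted of ribosomal RNA, made into NEBNext libraries and sequenced paired-end. The authors aligned the reads to mm9 with TopHat 2.1.1 and deposited raw read counts per Ensembl gene from HTSeq 0.9.1, with no normalization. Strand and overlap settings are not given in the sources used here. Reads of overlapping genes on opposite strands therefore could not be told apart.

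Gene symbols came from the NCBIM37 annotation, which matched 37205 of 37991 identifiers. A gene was tested where some group's mean, after scaling, reached 3 reads (17240 genes). Counts were scaled by TMM and fitted with edgeR 4.0.16 (robust quasi-likelihood, 6-group model, 12 residual degrees of freedom, R 4.3.3), with 15 comparisons of 2 groups and 2 differences in response, each adjusted by Benjamini-Hochberg over all genes tested. Every comparison of groups was made within that single fit, and with 3 libraries against 3 an exact permutation test cannot go below 0.1. SE and 95% intervals are those of the fitted log2 fold change. Levels per kb are normalized counts divided by the length of the merged exons. Likeness of pattern was the Pearson correlation of log2 CPM (prior count 2). The code was tested on simulated data. Replicates differed by more than sampling noise (chi-square per degree of freedom 2.89 to 12.1). Library totals of 10758571 to 24119489 limited precision only for genes with few reads. Alternatives were DESeq2 1.42.0, DESeq2 size factors, no filter, the compared groups alone, the replicate number as a block, marker scores as covariates, a fold limit, and leaving out single libraries. Leaving out the Y-marked tolerant libraries was chosen after seeing the data. Members and lists were chosen with earlier results of these data known. Pathway genes were named when past the threshold without overlap between libraries, at most the 2 highest and the 2 lowest of a list in a comparison. Some genes that this rule names are not reported here. Top2a, Hist1h1b and the other genes of like pattern were the 3 nearest of each member.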

Additional observations from a re-analysis of the deposited data

Results flagged for a closer look

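The response to a stimulus differed between tolerant and non-tolerant cells for 8 pairs of gene and stimulus, by the edgeR interaction term. For peptide, the log2 response of Dnmt1 differed by 0.80 (adjusted p = 4.42e-06), that of Dnmt3a by −0.63 (adjusted p = 5.74e-05), that of Tet1 by 1.64 (adjusted p = 0.000246) and that of Tet2 by −0.52 (adjusted p = 0.0013). In each of these the tolerant response had the same sign and the smaller size, for Tet1 −3.32 in place of −4.95. Tet1 was already lower at rest in tolerant cells (−1.07), and after peptide its levels did not differ past the threshold (0.56, adjusted p = 0.0786). For PMA and ionophore, the response of Tet2 differed by 1.07 (adjusted p = 2.7e-07), that of Uhrf2 by 0.74 (adjusted p = 1.8e-05), that of Tet1 by −1.05 (adjusted p = 0.00108) and that of Dnmt3b by −0.64 (adjusted p = 0.00241). For Tet2, Uhrf2 and Tet1 the tolerant response had the same sign and the larger size. For Dnmt3b it was −0.54 in tolerant cells beside 0.10, short of the threshold, in non-tolerant cells. All 8 differences stayed past the threshold when any single library was left out, and that of Tet1 after PMA and ionophore had an adjusted p of 0.0504 with the marker scores. Y-linked reads marked 0 of 3 N_0 and 2 of 3 T_0 libraries, and all of N_PI and T_PI. Sex thus enters the PMA and ionophore differences unequally, and leaving out single libraries cannot tell it apart from cell state.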

How the results depend on the processing

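Of the 88 log2 fold changes of members, all but Uhrf2 in T_0 against N_0 kept their direction and their side of the threshold in most alternatives, and no scaling reversed one. Requiring a fold of at least 2 and a mean above 50 left 2 members in N_PI against N_0, T_PI against T_0, T_0 against N_0, T_PI against N_PI and the difference in PMA and ionophore response, 3 in T_PI against T_Ag, and 1 in T_Ag against N_Ag and the difference in peptide response. The share of all genes at that limit was not computed for the differences in response, so their counts cannot be set against it. With the marker scores 4 passed in T_PI against T_0, where 5017 of all genes did in place of 11768. In T_Ag against N_Ag 1 passed, where 320 of all genes did in place of 6794. In T_0 against N_0 0 passed, where edgeR called 7 of all genes in place of 3519 by the main test and 3348 by DESeq2. Without the Y-marked tolerant libraries 2 passed in T_0 against N_0.

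The marker scores turned the sign of Uhrf1 in T_0 against N_0 (−1.06), T_Ag against N_Ag (−0.21), T_PI against N_PI (−0.58), T_Ag against T_0 (0.14), T_PI against T_0 (1.17), T_PI against T_Ag (1.03) and the PMA and ionophore difference (0.49). They also turned Dnmt3b in N_PI against N_0 (−0.11), T_Ag against N_Ag (0.60) and T_PI against N_PI (0.0034), Dnmt3a in T_PI against N_PI (−0.047), Tet3 in T_PI against T_Ag (0.00018) and Dnmt1 in the PMA and ionophore difference (0.011). Without the Y-marked libraries Dnmt3b turned in T_Ag against N_Ag (0.022). Of these, only Uhrf1 in T_0 and T_Ag and Dnmt3b in T_PI had passed before, and the cause was not tested.

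Leaving out single libraries gave 6 to 7 members in N_Ag against N_0, 6 to 7 in T_Ag against T_0, 4 to 5 in N_PI against N_0, 3 to 5 in T_0 against N_0, 5 to 6 in T_Ag against N_Ag, 4 to 5 in T_PI against N_PI and 4 to 5 in the PMA and ionophore difference. Values that crossed 0, none past the threshold, ranged for Uhrf1 from −0.53 to 0.075 in N_Ag against N_0, −0.24 to 0.11 in T_Ag against T_0, −0.23 to 0.37 in N_PI against N_0 and −0.13 to 0.48 in the peptide difference, for Dnmt3a from −0.038 to 0.072 in N_PI against N_0 and −0.032 to 0.091 in T_PI against N_PI, for Dnmt3b from −0.058 to 0.042 and for Uhrf2 from −0.0070 to 0.10 in T_Ag against N_Ag, and for Tet3 from −0.20 to 0.027 in the peptide difference.

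Replicate numbers did not pair the libraries, since 5 of 45 same-numbered pairs had correlated deviations over 0.1 and 0 of 15 pairs of groups had all 3. With the replicate number as a block, Uhrf2 in T_0 against N_0 (0.22, adjusted p = 0.0526) no longer passed and Tet3 there did (−0.24, adjusted p = 0.0494), and 3421 of all genes were called in place of 3519. Gains not given with the results were Uhrf1 in the peptide difference with the marker scores (0.86, adjusted p = 0.0235), Uhrf1 in T_PI against T_0 (−0.41, adjusted p = 0.018) and Uhrf2 in N_PI against N_Ag (−0.18, adjusted p = 0.0361) with the compared groups alone, and, in the PMA and ionophore difference, Dnmt1 without T_0 replicate 1 (adjusted p = 0.0497), Dnmt3a without T_PI replicate 1 (adjusted p = 0.016) or N_0 replicate 2 (adjusted p = 0.0474) and Uhrf1 without N_0 replicate 1 (adjusted p = 0.0391). Tet1 after peptide rested on 20 to 47 raw reads per library and Uhrf1 on 56 to 268 over all libraries, where it also varied widely within groups.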
